A study of Mus musculus with 69 samples.

Results

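Among 69 RNA libraries of mouse ventral striatum, 1 library per mouse, the transcript of Ttr ranged over more than 3 orders of magnitude, and the libraries rich in it were compared with the libraries poor in it. Ttr encodes transthyretin, the carrier of thyroid hormone and of the retinol-binding protein in cerebrospinal fluid (CSF). Within each of the 2 mouse lines, libraries were ranked by Ttr in CPM, the gene's count per 1000000 counts of its library. The 11 highest of each line form the 22 Ttr-rich libraries, the 11 lowest of each line form the 22 Ttr-poor libraries, and the remaining 25 lie between. The classes were thus chosen by the measured level of Ttr, and its own levels are given as a description and with no test.

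The lines were HDID1 (35 mice, 17 females and 18 males), a line selected for reaching high ethanol levels in blood when drinking in the dark, and HSNpt (34 mice, 17 females and 17 males), the genetically mixed stock used as control. All mice of both lines, per the labels, had taken a 4-day limited-access drinking test with 20% ethanol from a single bottle, and tissue was taken 3 weeks later, so no library comes from a mouse that was not offered ethanol. Ages are not given in the labels. The tissue was dissected freehand, from a slightly thawed coronal slice 2 mm thick whose rostral mark was the optic chiasm. The classes are therefore ranks of a measured transcript in dissected tissue and not a treatment.

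The choroid plexus is a frond of vascular tissue that hangs into the brain ventricles and is covered by a single sheet of epithelial cells. That epithelium secretes CSF, carries vitamins and ions between blood and CSF, and releases hormone carriers and growth factors into it. The ventricle wall beside it is lined by ependymal cells with beating cilia. In bulk tissue, more cells of a type and more RNA per cell cannot be told apart.

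Ttr made up 2127 to 5406 CPM in the Ttr-rich HDID1 libraries (median 2834) and 1.09 to 562 CPM in the Ttr-poor HDID1 libraries (median 265). In HSNpt it made up 1245 to 5190 CPM in the Ttr-rich libraries (median 2159) and 1.87 to 23.8 CPM in the Ttr-poor libraries (median 6.27). At the edges of the classes, the lowest Ttr-rich library of HDID1 had 2127 CPM and the next one outside the class 2104 CPM, and the highest Ttr-poor library had 562 CPM against 672 CPM just outside. The same 4 values in HSNpt were 1245 and 1073 CPM at the upper edge and 23.8 and 83.5 CPM at the lower edge. Only the lower edge in HSNpt fell in a gap, since 14 libraries (3 HDID1 and 11 HSNpt) had less than 25 CPM, 54 had more than 200 CPM, and HSNpt male 10 lay alone between them. The poor class thus means near absence of Ttr in HSNpt but a mixture of low and near-absent libraries in HDID1, with log2 differences of Ttr, rich minus poor, of 7.90 in HSNpt and 3.36 in HDID1.

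**Figure D1:**
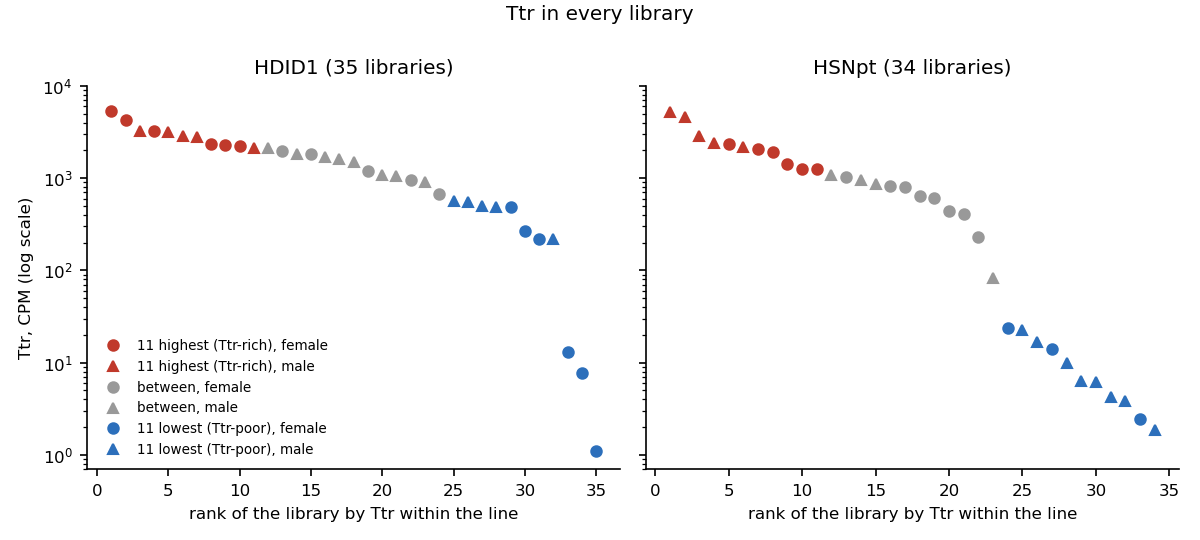
Ttr in CPM (log axis) in every library against its rank within HDID1 (left) and HSNpt (right); circles are females and triangles males, red the Ttr-rich, grey the libraries between and blue the Ttr-poor class. The curve is smooth at the upper edge in both lines, and 14 libraries lie under 25 CPM.

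Other features of the libraries, which the ranking did not use, gave no difference that passed after adjustment. The rich class held 12 females and 10 males and the poor class 9 females and 13 males (Fisher's exact test, adjusted p = 0.625 over 8 library measures). Total counts averaged 17747500 ± 2187130 in Ttr-rich and 18590400 ± 4905820 in Ttr-poor libraries (SD, n = 22 each, permutation of class within line, adjusted p = 0.625). Blood ethanol after the last session, in a unit the sources do not state, averaged 1.21 ± 0.682 in Ttr-rich and 1.75 ± 0.485 in Ttr-poor HDID1 mice (n = 11 each, permutation p = 0.0451, adjusted p = 0.120). In HSNpt mice it averaged 0.743 ± 0.659 in the Ttr-rich and 0.475 ± 0.686 in the Ttr-poor class (permutation p = 0.358, adjusted p = 0.625). The difference between the lines in that effect was -0.81 (two-sided permutation p = 0.0388, adjusted p = 0.120), so none of the ethanol comparisons passed after adjustment. The balance of reads between the 5′-most and the 3′-most exons of genes, a log2 value centred on the median library, averaged -0.32 ± 0.72 in Ttr-rich and 0.0037 ± 0.28 in Ttr-poor libraries (permutation p = 0.0323, adjusted p = 0.120). In all, 4 Ttr-rich libraries, 2 Ttr-poor libraries and 1 between stood apart by low 5′ coverage or by a low level of spiny neuron transcripts, more than 1.5 interquartile ranges outside the quartiles. Counts without those libraries are given for all genes, for the choroid plexus genes as a whole and for several other lists.

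Folr1 and Clic6 are the other markers given for choroid plexus RNA, and their differences were unlike in size. Folr1, the folate receptor that carries folate into CSF, had 7.88 to 47.1 CPM in Ttr-rich libraries (median 20.5) and 0 to 5.73 CPM in Ttr-poor libraries (median 0.432), and the classes did not overlap. Its log2 fold change, rich minus poor, was 4.24 ± 0.39 (SE), with an adjusted p of 1.53e-11 in edgeR's quasi-likelihood test across all genes. Clic6, a chloride channel family protein of secretory epithelia, had 33.3 to 87.4 CPM in Ttr-rich libraries (median 49.6) and 10.7 to 37.9 CPM in Ttr-poor libraries (median 21.7). The classes overlapped for Clic6, and its log2 fold change was 1.19 ± 0.12 (adjusted p = 2.49e-10). Where Ttr was nearly absent, in the 11 Ttr-poor HSNpt libraries, Clic6 was at 17.5 ± 4.54 CPM, which is 36.1% of its mean in Ttr-rich HSNpt libraries, while Folr1 was left at 1.45% and Ttr at 0.408%. Over the 54 libraries with more than 200 CPM of Ttr, log2 levels centred on the line gave r = 0.98 and rho = 0.97 between Ttr and Folr1, and r = 0.74 and rho = 0.79 between Ttr and Clic6 (permutation adjusted p = 3.0e-05 for each of these 4 values, adjusted over 6 relations). Before adjustment each had the smallest p that these permutations allow. Without the 2 libraries farthest from the median of Ttr, r was 0.97 and 0.76. Among the 14 libraries under 25 CPM, r was 0.16 for Folr1 and -0.23 for Clic6 (permutation adjusted p = 0.70 and 0.682). Folr1 had only 0 to 13 counts per library there, so its r rests on few reads and cannot show whether the relation holds.

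Of 16789 genes tested, 5407 differed between the classes at an adjusted p under 0.05, which is 32.2%. More precisely 2920 genes, or 17.4%, were higher in Ttr-rich libraries and 2487, or 14.8%, were lower. Most of these differences were small: 321 genes rose by more than 2-fold and 19 fell by more than 2-fold, while 2053 of the higher and 2290 of the lower genes changed by less than 1.5-fold. With the 4 Ttr-rich and 2 Ttr-poor libraries that stand apart left out, 2772 were higher (16.5%) and 3212 lower (19.1%). With the 5′ balance as a covariate, 1776 were higher (10.6%) and 945 lower (5.63%). When the libraries were ranked by Clic6 in place of Ttr, 1073 were higher (6.4%) and 458 lower (2.73%). When the lines were tested apart, 522 genes (3.11%) passed in HDID1, of which 488 (2.91%) were higher and 34 (0.203%) lower. In HSNpt 2151 (12.8%) passed, of which 1521 (9.06%) were higher and 630 (3.75%) lower. Both lines shared 435 of the higher genes (2.59% of all tested), which is 89.1% of the higher genes of HDID1 and 28.6% of those of HSNpt, and 0 genes passed in both lines with opposite signs.

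The lists of choroid plexus genes, grouped by role, hold 75 genes in all. They were chosen with earlier results of these data known, so counts over them are descriptions. Besides Ttr, 71 of them were expressed highly enough to be tested, and Epcam, Pon1 and Ptgdr were not. The filter used the groups of line and Ttr class, so a gene expressed in Ttr-rich libraries alone could pass it. Of the 71 genes, 57 were higher in Ttr-rich libraries and 2 were lower, with a median log2 fold change of 1.60 against 0.0080 over all genes. With the libraries that stand apart left out, 58 were higher and 3 lower, and with the 5′ balance as a covariate 56 were higher and 0 lower. Between the libraries rich and poor in Clic6, 52 were higher and 0 lower. In HDID1 alone 49 of the 71 were higher and in HSNpt alone 55, and 48 passed in both lines. Over all genes, 24 (0.143%) were at least 8-fold higher and passed, and 24 (0.143%) had every Ttr-rich library above every Ttr-poor one, and 18 of each were on these lists. The other genes without overlap, named after their values were seen, were Col9a3, Gyltl1b, Prr32, Rab20, Wfdc2 and Zfp185.

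Among proteins that the epithelium secretes or sheds into CSF, 11 of 14 genes tested were higher and 0 lower (median 1.89). Enpp2, which makes the secreted enzyme autotaxin, had 611 to 2594 CPM in Ttr-rich libraries (median 1162) and 163 to 699 CPM in Ttr-poor libraries (median 246), with a small overlap and a log2 fold change of 2.16 ± 0.15 (adjusted p = 8.97e-15). Kl, which encodes the anti-ageing hormone Klotho, had 14.2 to 106 CPM in Ttr-rich libraries (median 42.3) and 1.70 to 14.7 CPM in Ttr-poor libraries (median 4.58), so that the lowest Ttr-rich and the highest Ttr-poor libraries met (log2 fold change 3.05 ± 0.23). Igf2, the growth factor that the choroid plexus releases, had a median of 109 CPM in Ttr-rich and 25.4 CPM in Ttr-poor libraries and a log2 fold change of 2.02 ± 0.15. The locus of Igf2 overlaps an antisense transcript, Igf2os, which these counts may not separate. Its binding protein gene Igfbp2 rose by 1.76 ± 0.15 on the log2 scale and the transferrin gene Trf by 1.39 ± 0.21. The coagulation factor gene F5 and the BMP and Wnt antagonist gene Sostdc1 each rose by 3.5 on the log2 scale, and 1500015O10Rik, which encodes the secreted peptide augurin, by 3.80 ± 0.32. Cp (ceruloplasmin), Rbp4 (retinol-binding protein) and Vat1l did not pass, with log2 fold changes of 0.07, 0.03 and 0.00053.

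Ion and water transporters split into those with large differences and those without. Of 15 genes, 10 were higher and 0 lower (median 0.59), and 11 were higher and 1 lower without the libraries that stand apart. Slc4a5, a bicarbonate transporter of the apical membrane, had 4.79 to 29.6 CPM in Ttr-rich libraries (median 13.1) and 0 to 3.76 CPM in Ttr-poor libraries (median 0.338), with no overlap (log2 fold change 4.19 ± 0.37). The water channel gene Aqp1 had 4.84 to 20.8 CPM (median 9.59) in Ttr-rich and 0.0554 to 3.22 CPM (median 0.402) in Ttr-poor libraries, again with no overlap (3.83 ± 0.30). The potassium channel genes Kcnj13 and Kcne2 rose by 3.91 ± 0.32 and 4.05 ± 0.36, and the cation channel gene Trpv4 by 2.60 ± 0.16. Smaller rises were found for Slc4a2 (0.92 ± 0.09), which exchanges chloride for bicarbonate, Car2 (0.59 ± 0.09), which makes bicarbonate, and the cotransporter genes Slc12a4 (0.42) and Slc12a2 (0.34). The pump subunit gene Atp1b1 (0.03), the exchanger gene Slc4a10 (-0.23) and Car12 (0.32) did not pass.

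Carriers of vitamins, nutrients and drugs were higher for 13 of 16 genes and lower for 0 (median 0.70). Behind Folr1 came Steap1, a metalloreductase gene, at 3.45 ± 0.27, and Slco1a5, an organic anion carrier gene, at 3.02 ± 0.39. Abca4 (1.73 ± 0.13), the lactate carrier gene Slc16a8 (1.71 ± 0.16) and the sulphate carrier gene Slc13a4 (1.61 ± 0.23) followed. The copper transporter gene Slc31a1 had 23.1 to 37.3 CPM in Ttr-rich and 12.9 to 25.0 CPM in Ttr-poor libraries, a small difference (0.58 ± 0.06) with little scatter (adjusted p = 3.58e-10). The folate carriers Slc19a1 and Slc46a1 rose by only 0.13 and 0.29 on the log2 scale and lost their calls when the 2 libraries of highest Ttr in each line were left out.

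All 15 tested genes of junctions, adhesion and epithelial structure were higher in Ttr-rich libraries (median 2.82). Cldn2, the claudin that makes leaky tight junctions, had 4.86 to 18.5 CPM in Ttr-rich and 0 to 3.54 CPM in Ttr-poor libraries (4.02 ± 0.40). The keratin genes Krt18 and Krt8 rose by 3.52 ± 0.32 and 3.28 ± 0.28, Calml4 by 3.58 ± 0.33, and the WD repeat gene Wdr86 by 3.08 ± 0.18 with the smallest p of its list (adjusted p = 6.68e-17). Lbp, the lipopolysaccharide-binding protein gene, had 16.3 to 41.1 CPM in Ttr-rich and 0.320 to 11.7 CPM in Ttr-poor libraries (2.82 ± 0.23). Cab39l, which encodes a scaffold of the kinase STK11, rose by 0.71 ± 0.06 and its classes did not overlap. The claudin genes Cldn1 and Cldn3 rose by 1.27 ± 0.12 and 1.73 ± 0.28, and the cadherin gene Cdh3 by 2.58 ± 0.28. Ace, the angiotensin-converting enzyme gene, rose least (0.54 ± 0.11).

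Among receptors and transcription factors, 8 of 11 were higher and 2 lower (median 1.21). Msx1, a homeobox gene, had 6.38 to 18.9 CPM in Ttr-rich and 0.923 to 3.47 CPM in Ttr-poor libraries, with no overlap (2.44 ± 0.14, adjusted p = 2.52e-17). Otx2, the homeobox gene that choroid plexus development needs, had 4.05 to 14.8 CPM in Ttr-rich and 0 to 7.02 CPM in Ttr-poor libraries (2.71 ± 0.33). The ciliary regulator gene Foxj1 rose by 1.45 ± 0.19 and the prolactin receptor gene Prlr by 1.77 ± 0.35. The leptin receptor gene Lepr rose by 0.92 ± 0.16, and Lmx1a, a homeobox gene of the roof plate, by 2.82 ± 0.45. In Lmx1a the highest library of the 69 was Ttr-poor, at 2.96 CPM in HDID1 female 5, one of the libraries that stand apart. Rfx3 and Htr2c, the serotonin 2C receptor gene, are both known in the choroid plexus, and here they were lower in Ttr-rich libraries (-0.41 ± 0.13 and -0.29 ± 0.10). Both lost their calls with the 5′ balance as a covariate, when 0 of the 11 genes were lower.

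**Figure D2:**
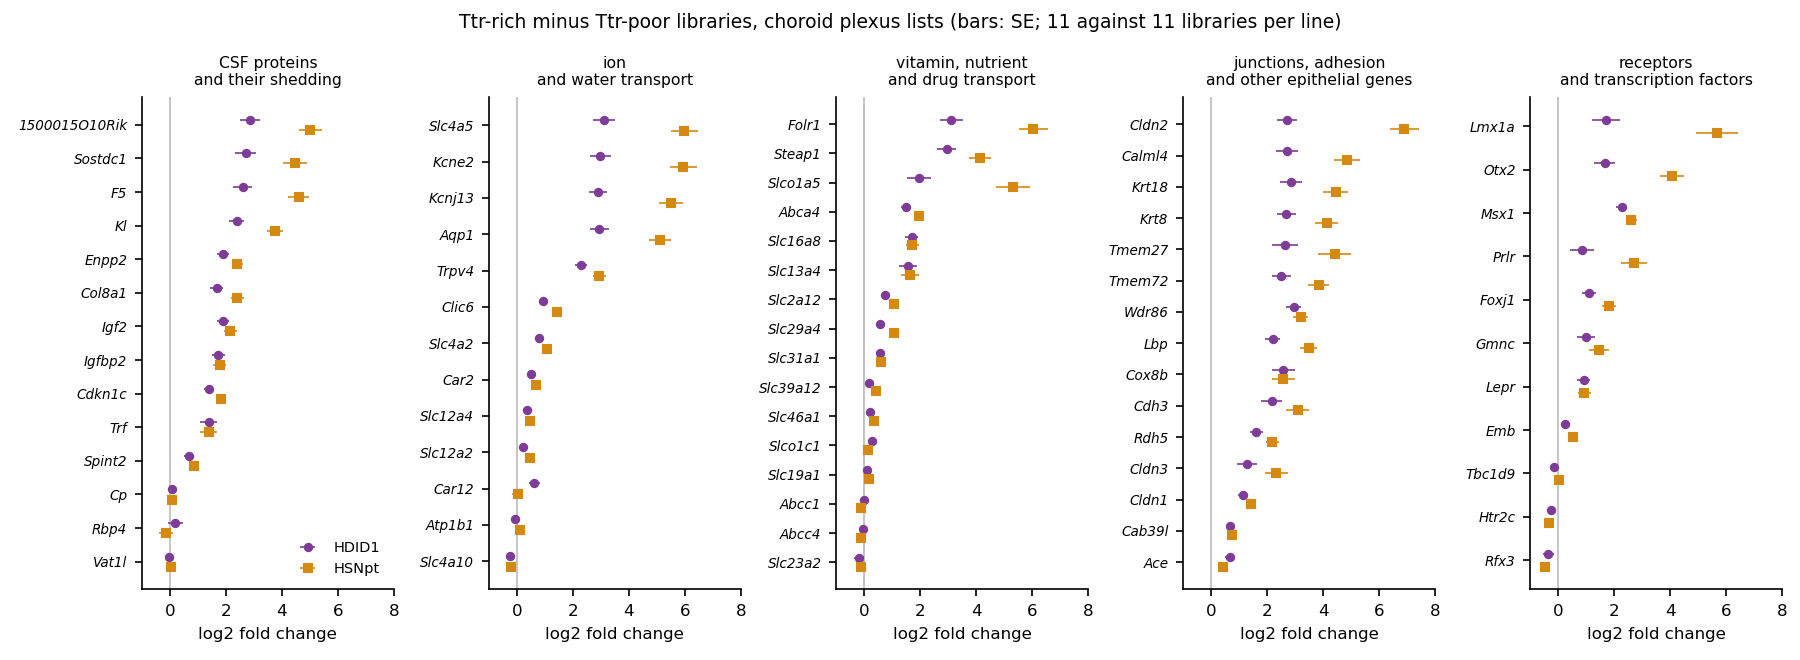
Log2 fold change, Ttr-rich minus Ttr-poor, of the tested genes of the 5 choroid plexus lists, without 2 ion transport genes not reported here, in HDID1 (purple circles) and HSNpt (orange squares), with SE bars (11 against 11 libraries in each line). Genes with large differences sit further right in HSNpt, as Cldn2 and Folr1 do, and the genes at the bottom of the panels, other than that of junctions, sit near 0 in both lines.

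How much of each choroid gene was left where Ttr was nearly absent differed widely between genes. In the Ttr-poor HSNpt libraries, 15 of the 57 higher genes were left at less than 5% of their Ttr-rich HSNpt mean, 17 at 5 to 25%, and 25 at 25% or more. Cldn2 (0.672%), Slc4a5 (1.52%), Kcne2 (1.60%), Kcnj13 (2.00%), Aqp1 (2.86%) and 1500015O10Rik (3.03%) were among the lowest. Kl was left at 7.12%, Enpp2 at 18.3%, Igf2 at 21.7% and Slc4a2 at 46.5%. In 53 of the 57 genes the log2 fold change was larger in HSNpt, the line whose Ttr-poor class held less Ttr. The interaction of class and line passed for 2 of 16789 genes (0.0119%), 1 in each direction (0.00596% each), and the negative one was Cldn2. Cldn2 had 4.86 to 14 CPM in Ttr-rich and 0 to 3.54 CPM in Ttr-poor HDID1 libraries (2.71 ± 0.36), and 4.89 to 18.5 CPM in Ttr-rich and 0 to 0.166 CPM in Ttr-poor HSNpt libraries (6.91 ± 0.52). The HDID1 effect minus the HSNpt effect was -4.20 ± 0.66 (adjusted p = 0.00150). The next choroid genes by p were Kcnj13, Kcne2 and Slc4a5, with differences of -2.61, -2.97 and -2.87 that did not pass (adjusted p = 0.0675, 0.0827 and 0.0827). Since the Ttr-poor classes of the lines hold different amounts of Ttr, the line and the depth of the contrast cannot be told apart in this test. The other gene was Trim17, an E3 ubiquitin ligase gene outside these lists, with effects of 0.32 in HDID1 and -0.50 in HSNpt.

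By sex, the interaction of class with sex passed for 0 genes (0%) in edgeR's test, while 387 had an unadjusted p under 0.05. The genes of smallest p were Ube2c, Gnrh1, BC043934, Daw1 and Ccdc33, with an adjusted p of 0.999 each.

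The genes whose levels were most like those of Ttr across all 69 libraries were named by Spearman's rho after centring on the line. They were Folr1 (rho 0.968), 1500015O10Rik (0.968), Kcne2 (0.952), Kcnj13 (0.951), Calml4 (0.951), Cldn2 (0.946), Prr32 (0.939), Col8a2 (0.930), Aqp1 (0.928) and Krt18 (0.927). Prr32 and Col8a2, a collagen gene, were not on the choroid plexus lists, and they rose by 4.27 ± 0.37 and 2.54 ± 0.22 on the log2 scale. These values describe the order of the libraries and carry no test, because the same libraries and totals stand behind every gene.

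The 25 libraries between the classes were not used to set them, and they gave a separate look at genes that go with Ttr. Their Ttr ran from 83.5 to 2104 CPM. The genes tested were those that had passed the filter in the Ttr-rich and Ttr-poor libraries. The slope of log2 expression on log2 Ttr passed for 44 genes (0.262%), all positive, and 43 of the 44 were also higher in the Ttr-rich class. Of the 71 choroid plexus genes, 20 passed and 63 had a positive slope (median slope 0.37), where 55% of all genes had one. Positive slopes were common in some other lists too, though few of those passed with all 25 libraries. They were found in 11 of 11 hypothalamic genes (median slope 0.90, 0 passed) and 10 of 12 septum and thalamus genes (0.57, 0 passed). They were also found in 13 of 13 myelin genes (0.30, 2 passed) and 10 of 10 mural cell genes (0.05, 0 passed). Of 17 spiny neuron genes 0 had a positive slope. Folr1 rose by 0.88 ± 0.07 on the log2 scale for each doubling of Ttr (adjusted p = 4.78e-08), Cldn2 by 1.05, Kcnj13 by 0.87, Kcne2 by 0.84 and Sostdc1 by 0.77. Outside the lists, Pcolce and Pcolce2, enhancers of procollagen processing, rose by 0.52 and 0.42, Scara5, a ferritin receptor gene, by 0.90, Car14, a carbonic anhydrase gene, by 0.40, and Tjp3, a tight junction scaffold gene, by 0.64. Enpp2 rose by 0.50, Igf2 by 0.48 and Cdkn1c, a cyclin-dependent kinase inhibitor gene, by 0.51. Clic6 had a slope of 0.11 ± 0.07 and did not pass (adjusted p = 0.600), so in these libraries its rise with Ttr was not detectable. Without HSNpt male 10, the library of lowest Ttr among the 25, 420 genes passed, 30 of them choroid plexus genes. The passing genes then had 295 positive and 125 negative slopes. Positive slopes then passed in 7 of 12 septum and thalamus genes, 3 of 13 myelin genes and 1 of 11 hypothalamic genes. Negative slopes passed in 3 of 12 cortical genes. With all 25 libraries and line and sex as covariates, 45 positive and 2 negative slopes passed. The absence of negative calls thus depends on HSNpt male 10 and on the covariates. Among the genes lower in the Ttr-rich class, 2230 of 2487 had a negative slope in the 25 libraries and 0 passed with all 25. Unadjusted, 1704 of all genes had a p under 0.05.

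**Figure D3:**
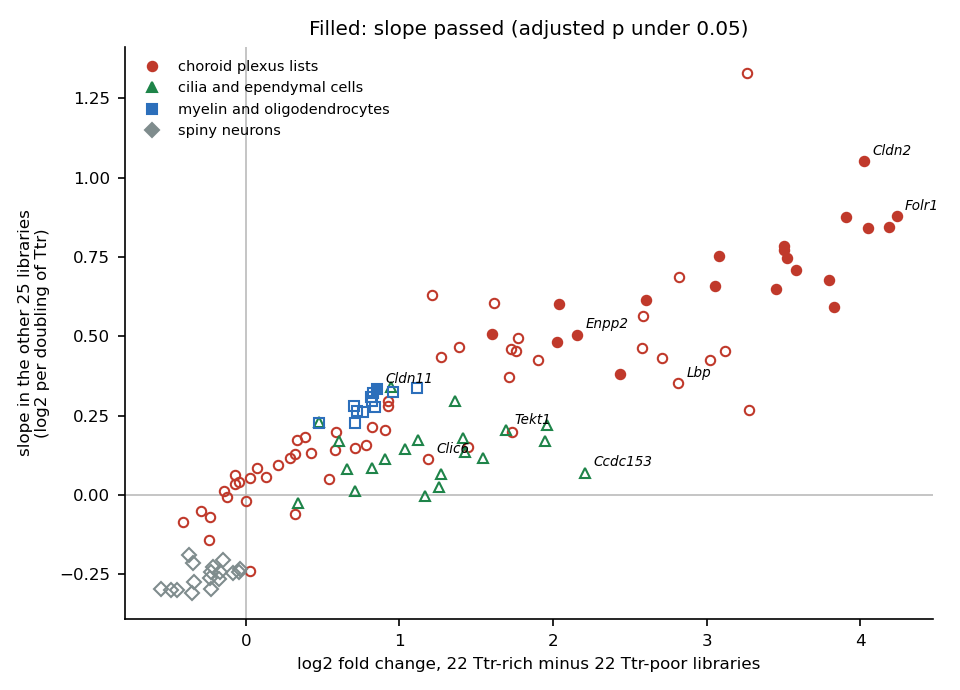
Slope on Ttr in the 25 libraries between the classes (vertical axis, log2 units per doubling of Ttr) against the log2 fold change between the 22 Ttr-rich and 22 Ttr-poor libraries (horizontal axis) for choroid plexus, ciliary, myelin and spiny neuron genes; filled symbols passed for the slope. Folr1 and Cldn2 stand at the upper right, ciliary genes such as Tekt1 and Ccdc153 lie to the right with lower slopes, and spiny neuron genes lie below 0.

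Genes of cilia and ependymal cells were higher in Ttr-rich libraries for 21 of the 22 tested and lower for 0 (median 1.21), and 21 were higher without the libraries that stand apart. In HDID1 alone 7 passed and in HSNpt alone 20. Tekt1, a tektin that stiffens ciliary microtubules, had 3.04 to 10.0 CPM in Ttr-rich libraries (median 5.03) and 0.517 to 4.55 CPM in Ttr-poor libraries (median 1.33), a log2 fold change of 1.69 ± 0.20. Dynlrb2, a dynein light chain gene, rose by 1.96 ± 0.24, Spef2 of the sperm tail and cilium by 1.42 ± 0.21, and Ccdc153 by 2.21 ± 0.38. Ccdc153 had 3.53 to 34.6 CPM in Ttr-rich and 0 to 12.7 CPM in Ttr-poor libraries. In the 25 libraries between the classes 0 of the 22 passed and the median slope was 0.14, beside 0.37 for the choroid plexus genes, and no test of that difference was made. The choroid plexus epithelium carries cilia too, and which of the tissues the ciliary transcripts came from was not tested. The summed level of the list was 184 to 480 CPM in Ttr-rich and 101 to 275 CPM in Ttr-poor libraries.

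Many ciliary genes share a promoter feature that the ranking did not use. RFX transcription factors, among them the product of Rfx3, bind an element called the X-box, of which GTTGCC is a half-site. Promoter windows of RefSeq on GRCm38.p6 (mm10), 250 bases before to 50 bases after the gene start, were found for 18 of the 24 ciliary genes listed and for 11698 of the tested genes. GTTGCC or its reverse complement GGCAAC lay in 13 of the 18 ciliary genes (72.2%), in 10 of the 55 choroid plexus genes with a window (18.2%) and in 15.4% of all tested genes with one. It also lay in Kcne2, Prr32 and Aqp1, 3 of the 8 genes with a window among those most like Ttr. In 12 of the 13 ciliary genes a match began within 100 bases of the gene start. The 200 bases before the start are shown for the 4 ciliary genes of smallest p with a match there, in gene direction, with GTTGCC or GGCAAC in capitals. The windows are chr11:72361883-72362082 (minus strand) for Tekt1, chr8:116504815-116505014 (plus) for Dynlrb2, chr16:33056187-33056386 (minus) for Iqcg and chr9:44240477-44240676 (plus) for Ccdc153.
Tekt1: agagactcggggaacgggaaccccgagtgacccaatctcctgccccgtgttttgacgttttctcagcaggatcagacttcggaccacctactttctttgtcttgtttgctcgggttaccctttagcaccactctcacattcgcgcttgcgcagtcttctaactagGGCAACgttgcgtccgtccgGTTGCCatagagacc
Dynlrb2: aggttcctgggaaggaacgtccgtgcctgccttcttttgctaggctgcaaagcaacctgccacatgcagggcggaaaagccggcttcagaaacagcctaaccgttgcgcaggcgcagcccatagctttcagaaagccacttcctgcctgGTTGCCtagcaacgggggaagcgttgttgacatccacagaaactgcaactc
Iqcg: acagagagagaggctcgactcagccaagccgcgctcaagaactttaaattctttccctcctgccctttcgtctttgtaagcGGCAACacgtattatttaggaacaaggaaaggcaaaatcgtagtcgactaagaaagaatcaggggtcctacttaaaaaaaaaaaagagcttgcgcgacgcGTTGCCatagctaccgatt
Ccdc153: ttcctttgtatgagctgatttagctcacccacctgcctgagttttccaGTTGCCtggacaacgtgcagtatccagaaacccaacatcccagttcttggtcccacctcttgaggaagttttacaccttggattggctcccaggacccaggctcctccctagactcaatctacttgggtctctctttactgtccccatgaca
Tekt1 and Iqcg carry 2 matches each in this stretch, 1 on either strand, while Dynlrb2 and Ccdc153 carry 1 each. The other motifs searched on both strands were TAATCC, a site of OTX factors, TAATTA, a homeodomain site, GTTGCTA, another X-box half-site, and 2 longer X-box forms that contain GTTGCC or GGCAAC. The OTX site TAATCC lay in 2 of the 18 ciliary genes (11.1%), 6 of the 55 choroid plexus genes (10.9%) and 6.80% of all genes. TAATTA lay in 0 of the 18, 5 of the 55 (9.09%) and 3.48% of all genes, and GTTGCTA in 5 of the 18 (27.8%), 3 of the 55 (5.45%) and 4.22% of all genes. The longer forms lay in 0 of the ciliary and choroid plexus genes and in 0.701% and 0.0171% of all genes. These shares are descriptions of letters in a window.

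Transcripts of myelin rose with Ttr as well. All 13 tested genes of myelin and oligodendrocytes were higher in Ttr-rich libraries (median 0.82), and all 13 were higher without the libraries that stand apart. One of them, Enpp2, is made by both oligodendrocytes and choroid plexus. Mbp, a main protein of the myelin sheath, had 2641 to 7012 CPM in Ttr-rich libraries (median 4300) and 1287 to 4775 CPM in Ttr-poor libraries (median 2417). The classes overlapped, and the log2 fold change was 0.84 ± 0.12 (adjusted p = 1.26e-06). Opalin rose by 1.12 ± 0.15, Mog by 0.96 ± 0.13, Cldn11 by 0.86 ± 0.11 and Gpr37, a receptor of oligodendrocytes, by 0.71 ± 0.10. The summed level of the list was 7862 to 17168 CPM in Ttr-rich and 3843 to 12793 CPM in Ttr-poor libraries. In the 25 libraries between the classes, Enpp2 and Cldn11 passed (slope 0.33 for Cldn11). The part of this shift in the differences of other genes was not tested.

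Of 12 astrocyte genes, 8 were higher and 1 was lower (median 0.23), but 4 were higher with the 8 highest and 8 lowest libraries of each line and 3 when the libraries were ranked by Clic6. In HDID1 alone 1 was higher and in HSNpt alone 6. Gfap, the intermediate filament of fibrous astrocytes, had 132 to 309 CPM in Ttr-rich libraries (median 223) and 39.1 to 293 CPM in Ttr-poor libraries (median 82.3), a log2 fold change of 1.13 ± 0.16. Agt (angiotensinogen) rose by 1.32 ± 0.33 and S100b by 0.50 ± 0.12, while Slc1a2, the main glutamate transporter gene, fell by 0.41 on the log2 scale.

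Markers of septum and thalamus were higher for 8 of 12 genes and lower for 0 (median 0.92), but this count depended on which libraries were compared. In HSNpt alone 10 passed and in HDID1 alone 0, with 9 higher when the libraries that stand apart were left out and 0 higher and 1 lower with the 8 highest and 8 lowest libraries of each line. Prkcd, a protein kinase gene of thalamic relay neurons, had 18.2 to 724 CPM in Ttr-rich libraries (median 114) and 7.95 to 823 CPM in Ttr-poor libraries (median 15.5). The highest value, 823 CPM, was in Ttr-poor HDID1 female 5. Its log2 fold change was 1.75 ± 0.58 in all (adjusted p = 0.0227), 0.22 ± 0.64 in HDID1 and 3.31 ± 0.71 in HSNpt, and the difference between the lines did not pass (-3.09 ± 0.93, HDID1 minus HSNpt, adjusted p = 0.924). Lhx9 (1.54), Rgs16 (1.03), Zic1 (0.96), Zic4 (0.92) and Lef1 (0.87) also rose. Zic1 and Zic4 lie side by side on opposite strands and overlap. Among hypothalamic genes Pomc rose (0.58 ± 0.23, adjusted p = 0.0488) and the other 10 of 11 did not pass. That 1 higher gene is 9.09% of the list, beside 17.4% over all genes, and 0 passed with the 5′ balance as a covariate, with DESeq2 size factors, when ranked by Clic6, without the 2 highest libraries of each line, with the 8 highest and 8 lowest, or in either line alone.

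Lists of other cells of the choroid plexus and its surroundings had from 0% to 25% of their genes higher, where 17.4% of all genes were. Of 18 genes of meningeal and stromal fibroblasts, 4 were higher (22.2%) and 0 lower (median 0.03): Igf2, which the epithelium shares, Lum (0.94 ± 0.18), Dcn (0.58 ± 0.14) and Serping1 (0.44 ± 0.14). The collagen genes Col1a1, Col1a2 and Col3a1 did not pass, and Col3a1 had the lowest log2 fold change of them (-0.32 ± 0.17). Among 12 endothelial genes, Slc2a1 rose (0.19) and Flt1 fell by 0.38. Plvap, which marks the fenestrated vessels of the choroid plexus, had 7.49 to 36 CPM in Ttr-rich and 5.04 to 25.6 CPM in Ttr-poor libraries and did not pass (0.27 ± 0.14, adjusted p = 0.126). Of 10 mural cell genes 0 passed in edgeR's test or in DESeq2's, and 2 had an unadjusted p under 0.05 (the smallest in Vtn, log2 fold change 0.19). Of 5 blood genes 0 passed in either, and 0 had an unadjusted p under 0.05 (the smallest in Hbb-bs, 0.50 ± 0.26). Of 5 tested border macrophage genes Folr2 rose (0.61) and Cd163 fell by 0.55, and with the 5′ balance as a covariate 0 passed, while Lyve1, Pf4, Ms4a7, Ccl24 and Cd209f were filtered for low counts. Among 12 microglial genes 3 rose, with C1qa (0.47 ± 0.15) and C1qb (0.36 ± 0.14) among them, and 0 fell. With the 5′ balance as a covariate, when ranked by Clic6, without the 2 highest libraries of each line and in HDID1 alone, 0 of the 12 rose.

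Neuronal genes of the striatum were lower in Ttr-rich libraries where they passed. Of 17 spiny neuron genes 0 were higher and 2 were lower (median -0.22), namely Foxp1 (-0.48 ± 0.17) and Gnal (-0.37 ± 0.12), and the share of lower genes, 11.8%, is below the 14.8% of all genes. With the libraries that stand apart left out 4 were lower. That count is not independent, since some of those libraries were set apart by low levels of these same genes. With the 5′ balance as a covariate 0 of the 17 were lower. The summed level of the spiny neuron list was 3166 to 13588 CPM in Ttr-rich and 1436 to 17381 CPM in Ttr-poor libraries. Among 12 cortical genes 1 was lower (8.33%), Rasgrf2 by 0.43, and 4 were lower without the libraries that stand apart. Among 10 immediate early genes 1 was lower (10%), Fosb by 0.43. Both shares are below the 14.8% of all genes. Of 12 genes of ventricle wall neuroblasts and progenitors, 2 were higher (16.7%) and 1 lower (8.33%), beside 17.4% and 14.8% over all genes. Cd24a, which ependymal cells also make, rose by 0.74 ± 0.14 and Igfbpl1 by 0.64 ± 0.23. Dcx, a microtubule protein gene of migrating neuroblasts, fell by 0.50. With the 5′ balance as a covariate 1 of these 12 was higher and 0 lower, and in HDID1 alone 0 passed.

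**Figure D4:**
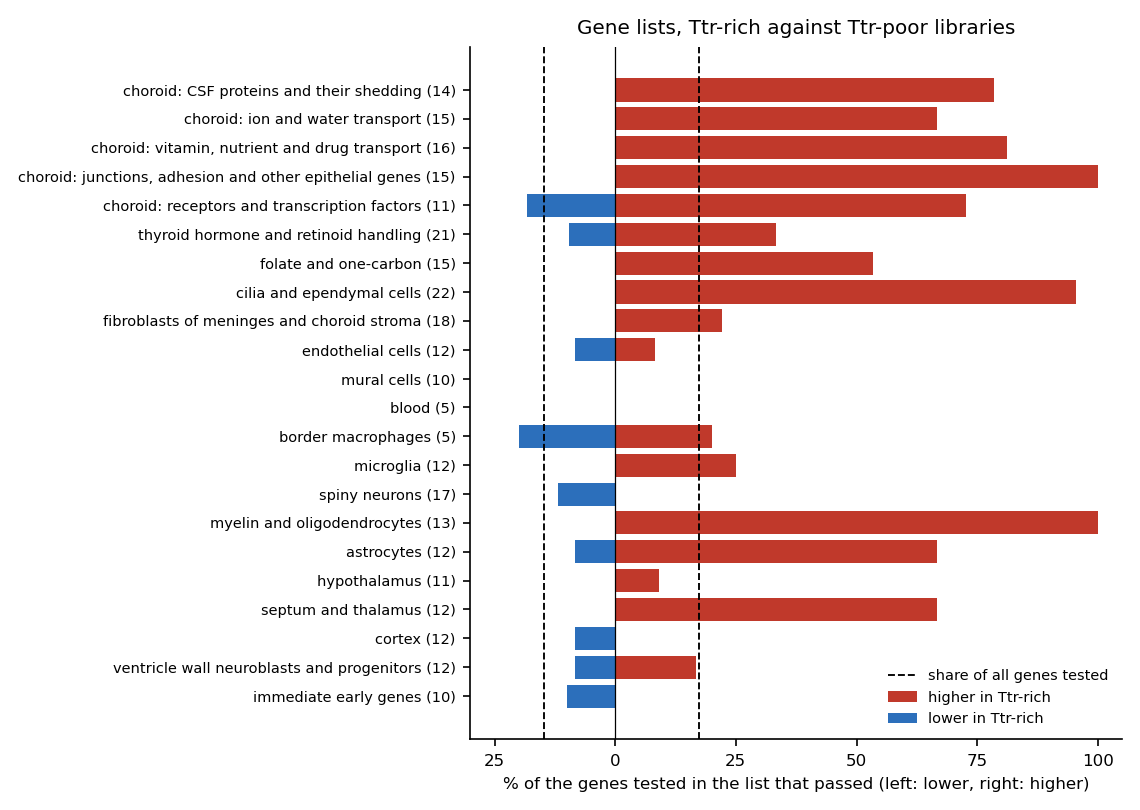
Share of the tested genes of each list that were higher (red, right) or lower (blue, left) in Ttr-rich libraries, with the number of genes tested in brackets and dashed lines at 17.4% and 14.8%, the shares over all genes. Choroid plexus, ciliary, myelin, astrocyte and septum and thalamus lists extend far beyond the right dashed line, and mural cells and blood have no bar.

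Lower genes changed by less than the choroid plexus genes did, with 19 of 2487 falling by more than 2-fold. The largest falls among genes with at least 5 CPM were Igsf9b (-0.96 ± 0.31) and Nwd2 (-0.93 ± 0.28), followed by Kctd16, a subunit of GABA-B receptors (-0.84), Ptchd4 (-0.83), Fzd3, a Wnt receptor gene (-0.83), and Samd12 (-0.76). Oprk1, the kappa opioid receptor gene, had 7.48 to 27.4 CPM in Ttr-rich libraries (median 15.6) and 8.95 to 47.3 CPM in Ttr-poor libraries (median 25.4), a log2 fold change of -0.74 ± 0.14 (adjusted p = 7.12e-05). Dchs2, Ndst4 and Fras1 fell by 0.74, 0.73 and 0.70. The fall of Igsf9b did not pass under 8 alternatives, and its log2 fold change was -0.51 with the 17 highest and 17 lowest libraries of each line and -0.52 with the 5′ balance as a covariate. That of Nwd2 did not pass with the 5′ balance as a covariate (-0.64), and that of Oprk1 passed under every alternative tried. In no gene did every Ttr-rich library lie below every Ttr-poor one.

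Ttr carries thyroid hormone and, with retinol-binding protein, retinol, and the handling of both was followed in a list of 22 genes. Of the 21 tested, 7 were higher and 2 lower (median 0.08), which is 33.3% and 9.52%, beside 17.4% and 14.8% over all genes. Without the libraries that stand apart 6 were higher and 4 lower, when ranked by Clic6 4 and 1, in HDID1 alone 1 and 0, and in HSNpt alone 3 and 2. Rdh5, a retinol dehydrogenase gene, had 6.12 to 17.6 CPM in Ttr-rich and 0.779 to 6.89 CPM in Ttr-poor libraries (1.90 ± 0.17). Rarres2 (chemerin) rose by 0.82 ± 0.16. Stra6, the receptor for retinol-binding protein, rose by 0.49 ± 0.18 and Slco1c1, a thyroxine carrier gene of brain barriers, by 0.21 ± 0.07. Thrb, a thyroid hormone receptor gene, and Dio2, the enzyme that activates thyroxine, fell by 0.42 and 0.37. Thra and Dio3 did not pass (-0.05 and -0.20). Rdh5, Slco1c1 and Rbp4 are on the choroid plexus lists too, and Rarres2 is on the ciliary list. Of the 15 genes of folate transport and one-carbon metabolism, 8 were higher and 0 lower (median 0.13), which is 53.3% higher, beside 17.4% over all genes. Without the libraries that stand apart 6 were higher and 1 lower, with the 5′ balance as a covariate or without the 2 highest libraries of each line 3 were higher, and when ranked by Clic6 2 were higher. After Folr1 the rises were small: Shmt1 0.40 ± 0.08, Mthfd2 0.37 ± 0.10 and Fpgs 0.24 ± 0.08. Mthfd1 and Tyms did not pass (0.09 and 0.06). Folr1, Slc19a1 and Slc46a1, all among the higher genes of this list, are on the choroid plexus lists too.

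Exon counts were compared to see whether the transcripts themselves differed. Exon usage, the share of a gene's reads that falls on an exon, passed in 234 of 12227 genes (1.91%). Of 58 choroid plexus genes tested 3 passed: Enpp2, Slc4a2 and Cab39l. In the whole table the 5 genes of smallest p were Gigyf2, Trpm3, Rnf26, Enpp2 and Mbp. For Gigyf2 and Rnf26 the exons concerned overlap a choroid plexus gene on the other strand. Gigyf2 exons at chr1:87386317-87386630 and chr1:87389051-87390883 overlap Kcnj13, and the first had 2.11 ± 0.891 CPM in Ttr-rich and 0.139 ± 0.174 CPM in Ttr-poor libraries (SD, n = 22 each) while the gene as a whole did not pass (-0.11 ± 0.07). The Rnf26 exon at chr9:44102942-44103088 overlaps Mfrp, a membrane frizzled-related protein gene that rose by 4.11 ± 0.38. Whether the counting used strand is not given in the sources used here, so reads of the partners may not be separated.

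Enpp2 holds an optional coding exon of 75 bases at chr15:54851348-54851422 (mm10, minus strand), which the GENCODE M21 transcript Enpp2-202 includes and other Enpp2 transcripts skip. It is shown with 15 bases of the exon on each side, in transcript direction, with the optional exon in capitals.
Enpp2: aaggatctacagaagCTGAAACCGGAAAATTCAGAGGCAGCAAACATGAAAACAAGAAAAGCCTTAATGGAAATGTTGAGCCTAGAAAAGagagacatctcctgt
Its reads rose less than those of the gene. The exon had 5.27 ± 2.24 CPM in Ttr-rich and 2.96 ± 1.28 CPM in Ttr-poor libraries (SD, n = 22 each), while Enpp2 as a whole was 4.46-fold higher in Ttr-rich libraries. In reads per base, it reached 5.0 to 39.6% of its 2 neighbouring exons in Ttr-rich libraries (median 18.5%) and 16.9 to 88.4% in Ttr-poor libraries (median 47%), so the classes overlapped. Within HDID1 the share averaged 15 ± 8.27% in Ttr-rich and 40.7 ± 19.9% in Ttr-poor libraries, and within HSNpt 21.3 ± 9.21% in Ttr-rich and 56.1 ± 16.7% in Ttr-poor libraries (SD, n = 11 each). The 25 libraries between averaged 25.9 ± 12%. Usage of the exon, rich minus poor, was -0.95 on the natural log scale (adjusted p of the gene = 1.23e-08 in edgeR's exon usage test). The share rests on 16 to 247 reads of the exon per library.

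**Figure D5:**
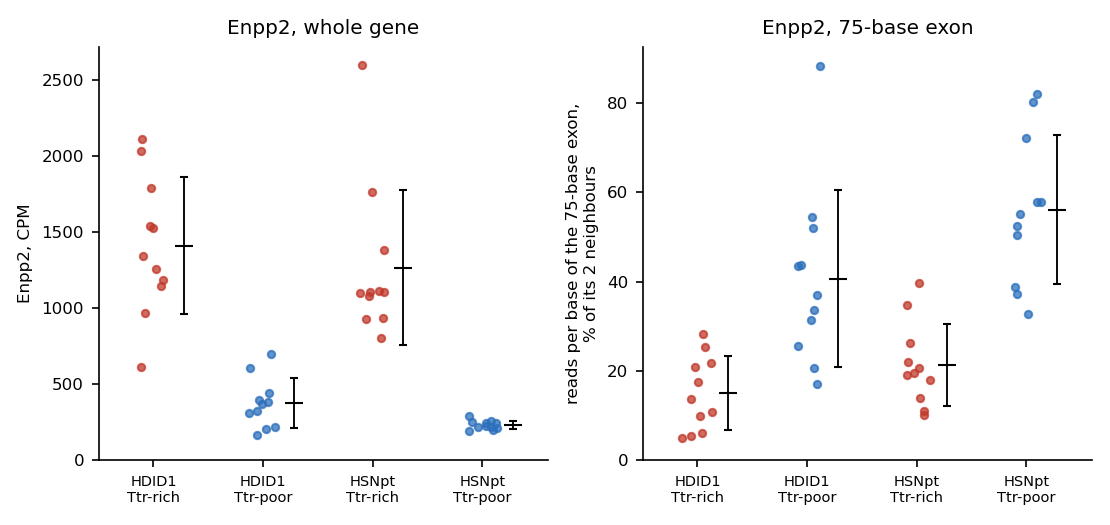
Enpp2 in CPM (left) and reads per base of its 75-base exon as a percentage of the 2 neighbouring exons (right) in each Ttr-rich (red) and Ttr-poor (blue) library of each line; black marks are means and bars SD (n = 11 per group). Ttr-rich groups are higher for the gene and lower for the exon share in both lines.

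Trpm3, a cation channel gene of the choroid plexus and of retinal pigment epithelium, showed the converse. The exon at chr19:22771958-22772372, the last of the short transcript Trpm3-205 in GENCODE M21, had 1.58 ± 0.752 CPM in Ttr-rich and 0.137 ± 0.176 CPM in Ttr-poor libraries. Its usage rose by 2.40 on the natural log scale (adjusted p of the gene = 1.49e-24). Trpm3 as a whole did not pass (log2 fold change 0.26 ± 0.20, adjusted p = 0.287). In Slc4a2 the first exon (chr5:24423837-24424368) had 0.937 ± 0.238 CPM in Ttr-rich and 0.892 ± 0.267 CPM in Ttr-poor libraries. A later exon of the gene, at chr5:24440081-24440577, had 8.57 ± 2.66 CPM in Ttr-rich and 3.56 ± 1.20 CPM in Ttr-poor libraries. In Cab39l exons 2 and 3 of 11 (chr14:59459094-59459241 and chr14:59461635-59461702) had 1.17 and 1.02 CPM in Ttr-rich and 1.18 and 1.05 CPM in Ttr-poor libraries, while the gene rose. In Mbp the first exons of the table, upstream of the myelin protein's own start, had lower usage in Ttr-rich libraries (-0.94 on the natural log scale for the first), where the gene as a whole was higher. Of the libraries that stand apart by low 5′ coverage, 3 are Ttr-rich and 1 is Ttr-poor, and the part of coverage in the lower use of the first exons of Slc4a2, Cab39l and Mbp was not tested.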

How the data were processed

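Whole-number counts of reads per gene and per exon were deposited by the authors, 1 column per mouse and not normalized. CASAVA, FastQC, STAR, bedtools and edgeR with genome build mm10 are named in the submitters' processing notes. Tool versions and the use of strand in counting were not given in the sources used here. Sex and line in the file headers equalled the labels for all 69 libraries, and 0 columns belonged to no sample. No pair of libraries of a group looked like 1 library given 2 times, since the lowest chi-square per gene was 5.78. The members, the gene lists and the tests were chosen with earlier results of these data known.

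Totals ran from 14077983 to 35257422 counts, so that 1 count is worth 0.0284 to 0.0710 CPM. A gene listed at 0 may have had as many as 3 counts by counting error alone. Genes were filtered with filterByExpr, scaled by TMM and tested with edgeR 4.0.16 (quasi-likelihood F test, line as covariate, R 4.3.3, Benjamini-Hochberg threshold 0.05). An SE is the size of the log2 fold change over the square root of F. Levels are plain CPM. Exon usage was tested with diffSpliceDGE and Simes p per gene, on exons that passed filterByExpr in genes with more than 1 such exon. In the 42252 genes named in both count sets, exon counts summed to the gene count in every library. A date stands in place of the gene name for 281 exons, and some of these were tested under that name. Library measures were compared by 100000 permutations of class within line (scipy 1.17.1, two-sided), and correlations used log2(CPM + 0.5) for Folr1 and Clic6. The class fit, the slope fit and the exon usage test were checked on simulated counts, and the other steps were not. Alternatives were DESeq2 1.42.0, other scaling, filters, covariates and choices of libraries.

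Named genes are the 3 markers, the 10 largest rises and falls that passed, kept their sign at p under 0.05 in each line and had a mean of at least 5 CPM, up to 6 passing genes of smallest p per list with at least 1 CPM (or the smallest p where none passed), the 10 genes most like Ttr, and the 5 of smallest p for each interaction and for exon usage. Other list members are given as values. Replicates were numbered in sample order. Each library is 1 mouse, and whether mice shared litters or cages is not given in the labels. Results of some list members are not reported here, though list counts and medians include them.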

Additional observations from a re-analysis of the deposited data

Results flagged for a closer look

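The class effect differed between the lines in 2 genes by the test of the difference itself. For Cldn2, the effect in HDID1 minus that in HSNpt was -4.20 on the log2 scale, with 2.71 in HDID1 and 6.91 in HSNpt, and the Ttr-poor HSNpt libraries reached at most 0.166 CPM. For Trim17 it was 0.82 (adjusted p = 0.0492), with 0.32 in HDID1 and -0.50 in HSNpt. Trim17 had 3.80 to 6.96 CPM in Ttr-rich and 4.99 to 10.6 CPM in Ttr-poor HSNpt libraries, and its exons overlap those of 2310058D17Rik on the other strand.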

How the results depend on the processing

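The count of 5407 genes moved to 2974 with the 8 highest and 8 lowest libraries of each line, 2749 without the 2 highest of each line, 1531 when ranked by Clic6, 994 in females alone and 662 in males alone. It was 2721 with the 5′ balance and 3090 with the 5′ balance and the spiny neuron score as covariates, both chosen after seeing the data. Between the classes, 44 genes passed for the slope, 47 with line and sex as covariates, 68 with the 5′ balance, 55 without HDID1 female 6 and 420 without HSNpt male 10. The difference in total counts reversed, to 118302 more in the rich class, with the 17 highest and 17 lowest of each line. The causes were not tested. Of the 57 higher choroid plexus genes, between 49 (females) and 57 kept their calls under each alternative that tested all of them. Of 103 passing genes named by the rule, 49 no longer passed in males, 44 in females, 31 of 102 when ranked by Clic6, 19 with the 5′ balance, 19 with the 8 highest and lowest, and at most 15 under each other alternative, where 79 of them were tested at 5 CPM. None changed sign where tested. No paired analysis was possible because replicates were numbered in sample order, which pairs nothing. Genes near 0 in Ttr-poor libraries rest on few counts, and their fold changes are imprecise.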
